A study of Rattus norvegicus with 16 samples.

Results

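The ventral prostate of young rats whose dams were fed a low protein diet was compared with that of control offspring at postnatal day 21. All 7 libraries taken at that age were used, of 16 in the series. They were chosen by age and diet alone. In the 4 control libraries (CTR1 to CTR4) the dams received a normal diet with 17% protein in gestation. In the 3 low protein libraries (GLLP2, GLLP3 and GLLP4) the dams received 6% protein through gestation and lactation. The labels name neither strain nor litter and do not state the diet of control dams in lactation or whether glands were pooled. Libraries were therefore treated as the replicates, and the p-values measure only the spread between them.

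The ventral prostate is a lobe of branching ducts lined by secretory epithelium over basal cells, and it is wrapped in smooth muscle and fibroblasts. Androgens drive its growth and secretion. Striated muscle, whose fibres contract by sliding myosin thick filaments along actin thin filaments, is not part of the gland, although the urethra and pelvic floor near it carry such fibres. For that reason striated muscle genes are described apart from the rest.

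The labelled tissue was checked against its markers. Hoxb13, a transcription factor of the prostate, lay at 405 to 479 CPM (counts scaled to the size of the library) in CTR and at 413, 496 and 443 CPM in GLLP2, GLLP3 and GLLP4. The secretory gene Scgb1d2 was abundant in every library, at 26271 to 33681 CPM in CTR and 15311 to 21730 CPM in GLLP. Svs4, a seminal vesicle gene, was at 0 in all CTR libraries and at 0 to 0.0288 CPM in GLLP. Semg1, another secretory gene of the seminal vesicle, was present, at 3.23, 4.95, 7.12 and 176 CPM in CTR1 to CTR4 and at 120, 13.3 and 40.1 CPM in GLLP2 to GLLP4, so it was high in CTR4 and GLLP2. All CPM values were scaled with TMM, a normalization that centres most genes. Totals ran from 30529776 to 39161666 counts per library, and mitochondrial genes took 0.304% of the counts in CTR1 against 3.70% to 5.05% in the others.

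Library GLLP4 also stood apart by gene size. The 10956 genes with a mean of at least 2 CPM and a genomic span in RefSeq, which gave one for 87.0% of the 14915 genes tested, were divided by span into 5 classes of equal size. In GLLP4 the shortest class had a median log2 CPM 0.20 above the CTR mean, and the longest class had a median difference of -0.31. The medians of the shortest and longest classes were -0.04 and 0.03 in GLLP2 and 0.03 and -0.06 in GLLP3. Across the CTR libraries the class medians ran from -0.05 to 0.05. The part of this pattern in the results below was not tested.

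**Figure D1:**
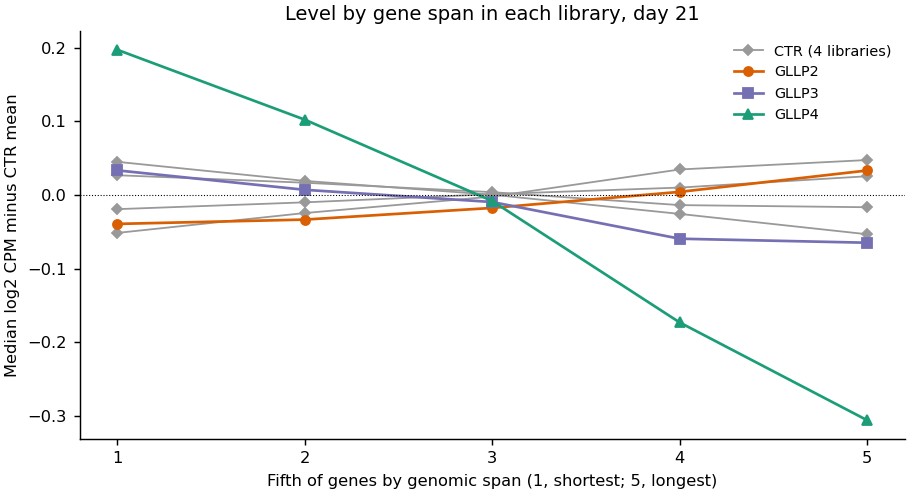
Median difference in log2 CPM from the CTR mean (vertical axis) in 5 classes of genes by genomic span (horizontal axis, shortest to longest), with 1 line per library. The line of GLLP4 runs from 0.20 to -0.31, and the lines of the other 6 libraries stay between -0.06 and 0.05.

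The diet comparison asked which genes differed between GLLP and CTR offspring. By edgeR's quasi-likelihood test at an adjusted p under 0.05, 150 of 14915 genes (1.01%) were higher in GLLP and 16 (0.107%) were lower. A catalogue of 200 striated muscle genes, written with earlier results of these data known, held 144 tested genes. Of these, 67 were called higher and 0 lower (1 lower at an unadjusted p under 0.05; 0 by DESeq2 and 2 by limma voom), with a median log2 difference of 4.22 among the called ones. Counts by looser criteria are read against their share over all genes. At an unadjusted p under 0.05, 10.9% of all genes were higher and 8.39% lower. DESeq2 called 4.2% higher and 1.8% lower, and voom 12.7% and 10.4%. The other 14771 genes gave 83 higher calls (0.562%) and 16 lower calls (0.108%). In a tissue sample, more cells of a type and more RNA per cell cannot be told apart.

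Most striated muscle genes rose, by wide margins in many cases. An entry was found for 178 of the 200 catalogue genes, and for 6 of 10 markers of muscle fibres. Among the 144 tested, 131 differences were positive and 13 negative, with a lowest log2 difference of -0.95. Of the 144 tested catalogue genes, 101 had GLLP wholly above CTR and 0 wholly below, against 9.49% and 7.6% of all tested genes. The 67 called genes are among the 101, but every called gene, in muscle or outside it, had groups without overlap. The whole catalogue had a median log2 difference of 1.55, beside -0.00 over all genes tested. It took 0.0775% to 0.0871% of the counts in CTR and 0.220%, 0.201% and 0.189% in GLLP2, GLLP3 and GLLP4.

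Myosin genes of fast and developing fibres led this group, and all 8 tested members of that list were called. Myl1, an alkali light chain of fast myosin, was at 0.231, 0.226, 0.120 and 0.0597 CPM in CTR1 to CTR4 and at 64.2, 52.7 and 44.5 CPM in GLLP2 to GLLP4. Every GLLP library was far above every CTR library, and the log2 difference was 8.36 ± 0.28 (SE; edgeR adjusted p = 2.275e-06). Mylpf, the regulatory light chain of fast fibres, rose from a CTR range of 2.30 to 3.09 CPM to 60.2, 37.3 and 51.7 CPM in GLLP (17.5-fold, edgeR adjusted p = 1.02e-05). The fast heavy chain Myh4 lay at 0.481 to 3.00 CPM in CTR against 268, 144 and 113 CPM in GLLP (log2 difference 7.00 ± 0.60, edgeR adjusted p = 0.00222). The heavy chains are close copies of each other in a gene cluster, so reads may have been divided among them.

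Chains of immature fibres rose as well. Embryonic Myh3 was at 0.0597 to 0.170 CPM in CTR and 3.38, 3.50 and 2.51 CPM in GLLP, a 26.0-fold difference (edgeR adjusted p = 0.000192). Perinatal Myh8 was at 0 in 3 CTR libraries and 0.113 CPM in the other, beside 8.07, 9.91 and 4.35 CPM in GLLP (edgeR adjusted p = 0.000684). Both were lowest in GLLP4 among the GLLP libraries.

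Slow-fibre genes differed less evenly, and 2 of 8 tested members of their list were called. Mybpc1, a slow myosin binding protein, rose from a CTR range of 0.331 to 0.735 CPM to 29.8, 23.0 and 16.9 CPM (edgeR adjusted p = 3.1e-05), and the slow light chain Myl3 rose from a CTR range of 0.0566 to 0.239 CPM to 3.76, 4.24 and 1.56 CPM (edgeR adjusted p = 0.00308). Myh7, the slow heavy chain, was not called, at 0.260 to 0.566 CPM in CTR and 2.67, 12.4 and 0.922 CPM in GLLP (edgeR adjusted p = 0.0729). The level of Myh7 in GLLP3 was far above that in the other GLLP libraries. Slow troponin I, Tnni1, also had its highest level in GLLP3, at 1.58, 3.78 and 1.24 CPM in GLLP against 0 to 0.113 CPM in CTR (edgeR adjusted p = 0.00885). For Myl1, Myh4 and Mybpc1 the highest library was instead GLLP2.

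Thin filament genes gave 9 calls among 13 tested. The fast troponins Tnni2 and Tnnt3, which hold the filament in check until calcium arrives, rose 54.6-fold and 8.38-fold. Tnni2 was at 0.491 to 0.631 CPM in CTR and 39.8, 22.3 and 32.0 CPM in GLLP. Tnnt3 was at 6.28 to 9.00 CPM in CTR and 82.6, 49.3 and 52.8 CPM in GLLP. Acta1, skeletal alpha-actin, was already at 303, 309, 385 and 328 CPM in CTR and reached 475, 547 and 607 CPM in GLLP (1.64-fold, edgeR adjusted p = 0.0305). It was the only called catalogue gene in which some GLLP library lay under 1.5 times the CTR mean, and its coding sequence is close to that of smooth muscle actin.

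**Figure D2:**
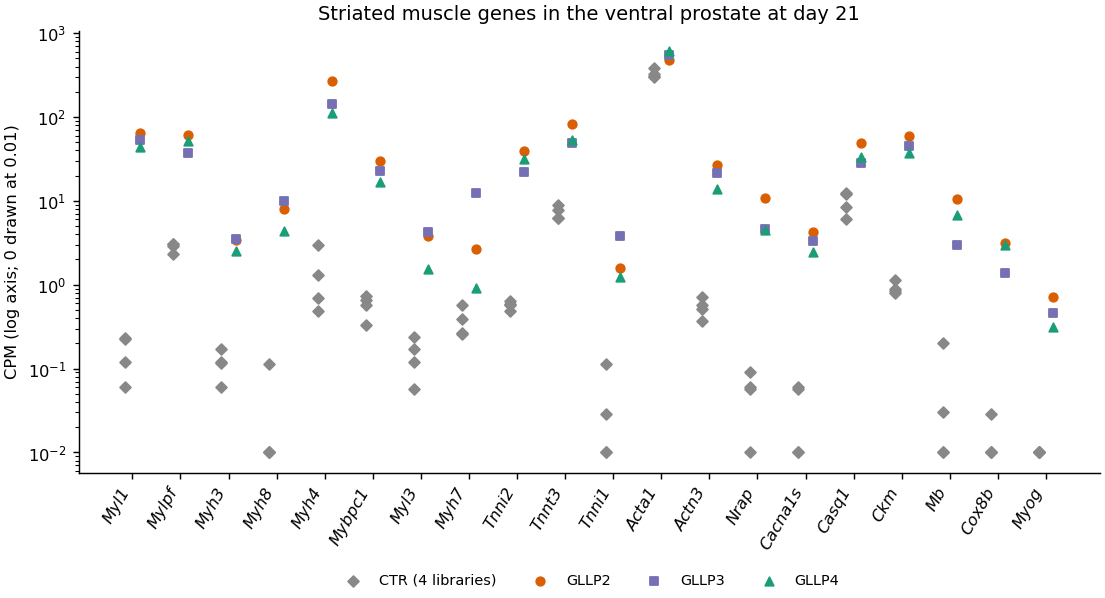
CPM on a log axis for 20 striated muscle genes (horizontal axis), with grey diamonds for the 4 CTR libraries and coloured symbols for the 3 GLLP libraries. Myl1 lies at 0.0597 to 0.231 CPM in CTR against 44.5 to 64.2 CPM in GLLP, while Acta1 rises from a high CTR level and Myh7 is highest in GLLP3.

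The Z disc and M band list, genes that anchor the filaments, gave 17 calls among 42 tested. Actn3, the fast-fibre alpha-actinin, rose from a CTR range of 0.368 to 0.721 CPM to 27.1, 21.3 and 13.7 CPM (edgeR adjusted p = 4.41e-05). Myoz1, a calcineurin-binding Z disc gene, rose 19.7-fold. Nrap, active in the assembly of myofibrils, went from a CTR range of 0 to 0.0901 CPM to 10.8, 4.66 and 4.47 CPM. Xirp2 had no count in CTR and 387 counts in GLLP, at least 162-fold higher against a floor of 3 counts over the CTR group (edgeR adjusted p = 0.0409).

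Calcium handling and excitation gave 14 calls among 21 tested. The voltage sensor Cacna1s rose from a CTR range of 0 to 0.0601 CPM to 4.25, 3.29 and 2.45 CPM in GLLP (edgeR adjusted p = 0.000502). Casq1, which stores calcium in the sarcoplasmic reticulum, rose from a CTR range of 6.00 to 12.3 CPM to 49.4, 28.1 and 33.5 CPM. Pvalb, a calcium buffer of fast fibres, rose 6.00-fold. Sypl2, a protein of the triad junction, rose from a CTR range of 0 to 0.0577 CPM to 7.62, 3.59 and 2.91 CPM. Ryr1, the calcium release channel, was not called, at 16.4 to 19.3 CPM in CTR and 31.6, 26.9 and 23.0 CPM in GLLP (edgeR adjusted p = 0.0773).

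Genes of energy supply gave 10 calls among 20 tested. Ckm, the muscle creatine kinase, was at 1.15, 0.792, 0.841 and 0.896 CPM in CTR1 to CTR4 and at 59.4, 44.8 and 36.8 CPM in GLLP2 to GLLP4 (log2 difference 5.67 ± 0.21, edgeR adjusted p = 3.249e-06). Mb, which encodes the oxygen store myoglobin, rose from a CTR range of 0 to 0.202 CPM to 10.4, 3.01 and 6.74 CPM. Eno3, the muscle enolase, rose 4.20-fold above a CTR range of 6.51 to 7.58 CPM. Ampd1, which deaminates AMP in muscle, rose 13.1-fold. Cox8b, a muscle subunit of cytochrome c oxidase, had 1 count in CTR and stood at 3.18, 1.40 and 3.00 CPM in GLLP.

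Regulators of muscle formation stayed near the limit of counting. Myog, the transcription factor of differentiating myoblasts, had no count in CTR and 0.708, 0.466 and 0.317 CPM in GLLP, at least 22.2-fold higher (edgeR adjusted p = 0.0361). Myod1, absent from the counts in CTR, had 1.13, 0.117 and 0.288 CPM in GLLP and was too low to be tested. The satellite cell gene Pax7 was at 0 in all GLLP libraries, and Myf5 had 4 counts, all of them in GLLP2. The list of myogenic factors gave 1 call among 4 tested. Of 6 tested genes of the nerve-muscle junction 0 were called by edgeR, with 3 higher at an unadjusted p under 0.05 and 1 called by each of DESeq2 and voom. The acetylcholine receptor subunits Chrnd and Chrne had groups without overlap (edgeR adjusted p = 0.0825 and 0.222).

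Other muscle-enriched genes gave 6 calls among 22 tested. Eef1a2, a translation elongation factor of muscle and neurons, rose 34.3-fold above a CTR range of 0.119 to 0.404 CPM. Hjv, a regulator of hepcidin, had no count in CTR and 3.09, 1.77 and 1.76 CPM in GLLP, at least 97.7-fold higher. Art1, an ADP-ribosyltransferase, rose 51.5-fold, and Apobec2, of the deaminase family, rose 4.74-fold.

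Markers of neighbouring contractile tissue were measured beside these genes. The 18 smooth muscle genes gave 0 edgeR calls and a median log2 difference of 0.08, with 4 higher and 2 lower at an unadjusted p under 0.05, 1 higher call by DESeq2 and 2 in each direction by voom. Myh11, the smooth muscle heavy chain, was at 1015 to 1096 CPM in CTR and 1146, 1069 and 921 CPM in GLLP. The 5 heart markers summed to 4.27 to 7.22 CPM in CTR and 8.52, 8.86 and 9.05 CPM in GLLP, and 0 of them were called. Most of that sum was Myh6, a heavy chain of heart muscle, at 2.55 to 4.597 CPM in CTR and 5.53, 6.81 and 7.61 CPM in GLLP without overlap (edgeR adjusted p = 0.0754). Nppa and Nppb, the hormone genes of the heart, were at 0 in all GLLP libraries except for Nppa at 0.115 CPM in GLLP4. The 5 urothelial markers summed to 9.09 to 11.2 CPM in CTR and 11.2, 9.58 and 31.2 CPM in GLLP2 to GLLP4. Upk1a made up most of each sum, and GLLP4 was the highest library for Upk1a, Upk1b, Upk2 and Upk3a. In GLLP2, the library with the most muscle RNA, Upk1a lay below the CTR range, but the other 4 markers lay above every CTR library. They stood there at 1.09 CPM for Upk1b, 0.515 for Upk2, 0.997 for Upk3a and 0.354 for Krt20, where the highest CTR values were 0.661, 0.120, 0.115 and 0.173 CPM. Krt4, a keratin of the full urothelial list, was at 0.149 to 1.21 CPM in CTR and 4.66, 0.816 and 14.7 CPM in GLLP (edgeR adjusted p = 0.12). The 5 tested genes of the full urothelial list gave 0 edgeR calls, 2 higher at an unadjusted p under 0.05, 2 by DESeq2 and 1 by voom. The part of the heart and urothelial markers in the muscle result was not tested.

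At day 540 the same catalogue without Acta1 summed to 300 to 467 CPM in all 9 libraries of both diets. At day 21 that sum was 503 to 528 CPM in CTR and 1678, 1288 and 1175 CPM in GLLP2 to GLLP4. The tables of the ages were made with different gene names, so levels are only set side by side. Myl1 at day 540 was between 0 and 0.415 CPM in every library.

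Promoter windows of called muscle genes are shown because the genes moved together and because muscle promoters are known for E-boxes, the CANNTG motif bound by Myod1 and Myog. Each is a RefSeq window of 250 bases before to 50 after the start on the GRCr8 build, read 5′ to 3′, and capitals mark every CANNTG. Ckm stands for energy supply, Tnni2 for the thin filament, Cav3 for the membrane and Myog for the regulators.
Ckm, chr1:88189211-88189510, plus strand: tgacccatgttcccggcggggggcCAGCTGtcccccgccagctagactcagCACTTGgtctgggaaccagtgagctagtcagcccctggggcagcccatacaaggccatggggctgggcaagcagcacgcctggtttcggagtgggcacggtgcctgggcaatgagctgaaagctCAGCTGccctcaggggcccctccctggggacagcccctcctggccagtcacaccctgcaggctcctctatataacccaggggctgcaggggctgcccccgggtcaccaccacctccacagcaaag
Tnni2, chr1:207024240-207024539, plus strand: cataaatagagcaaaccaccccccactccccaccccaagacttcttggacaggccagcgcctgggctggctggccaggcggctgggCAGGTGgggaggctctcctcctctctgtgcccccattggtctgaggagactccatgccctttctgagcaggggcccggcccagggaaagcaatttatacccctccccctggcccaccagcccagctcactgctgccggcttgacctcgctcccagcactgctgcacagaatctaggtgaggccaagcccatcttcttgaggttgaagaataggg
Cav3, chr4:147137743-147138042, plus strand: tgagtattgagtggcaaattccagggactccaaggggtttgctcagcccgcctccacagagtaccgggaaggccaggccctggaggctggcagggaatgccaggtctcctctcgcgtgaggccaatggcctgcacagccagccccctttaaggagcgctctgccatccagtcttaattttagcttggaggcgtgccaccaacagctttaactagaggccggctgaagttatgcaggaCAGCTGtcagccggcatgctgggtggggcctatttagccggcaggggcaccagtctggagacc
Myog, chr13:48297226-48297525, plus strand: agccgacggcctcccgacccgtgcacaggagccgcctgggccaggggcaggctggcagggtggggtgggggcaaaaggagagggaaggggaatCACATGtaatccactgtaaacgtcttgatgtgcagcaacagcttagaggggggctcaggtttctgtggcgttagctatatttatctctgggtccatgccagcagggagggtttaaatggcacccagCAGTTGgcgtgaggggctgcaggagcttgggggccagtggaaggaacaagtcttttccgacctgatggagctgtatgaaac
The motif is its own reverse complement, so 1 strand covers both. The Ckm window holds 3 matches, of which 2 are CAGCTG, and the windows of Tnni2, Cav3 and Myog hold 1, 1 and 2 CANNTG matches. Windows were found for 55 of the 67 called muscle genes, and 51 of their 57 windows (89.5%) hold CANNTG, beside 91.7% of those of tested catalogue genes that were not called. The motif is in 64.2% of the windows of all tested genes and in 72.1% of all 33469 RefSeq windows. The stricter CAGCTG, which is also a CANNTG, is in 43.9% of the windows of called muscle genes, in 43.3% of those of tested catalogue genes that were not called, and in 15.1% of all windows. A match describes these letters and is not evidence of a bound site.

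Outside the catalogue, 83 genes rose and 16 fell. A change was taken to hold in all 3 GLLP libraries when the gene was called, the groups did not overlap, and each GLLP library lay at least 1.5-fold from the CTR mean. By that rule 54 of the 83 higher calls and 10 of the 16 lower calls held. Leaving the test aside, 2.1% of all genes met the same separation on the higher side and 0.516% on the lower side. Of the 83, 11 belong to a wider set of muscle genes chosen after the calls were seen, and without them 45 changes held. Atp1b4, Klhl31, Mlf1 and Rtn2 are among these. They are known in muscle, and Atp1b4, a beta-type pump subunit, rose 16.6-fold, from a CTR range of 0.0597 to 0.115 CPM to 1.93, 1.56 and 1.04 CPM.

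The order of the GLLP libraries differed between muscle and the rest. GLLP2 was the most changed library in 54 of the 67 called muscle genes, with medians of 3.97, 3.48 and 3.06 log2 units above the CTR mean in GLLP2, GLLP3 and GLLP4. Outside the catalogue GLLP2 was the least changed library in 54 of the 83 genes that rose, with medians of 0.74, 1.11 and 1.13. It was also the least changed in 9 of the 16 that fell, with medians of -0.75, -1.10 and -0.89. Outside the catalogue GLLP2 was the most changed library in 20 of the 83 and in 3 of the 16. Whether the changes outside muscle depend on the amount of muscle RNA was not tested.

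**Figure D3:**
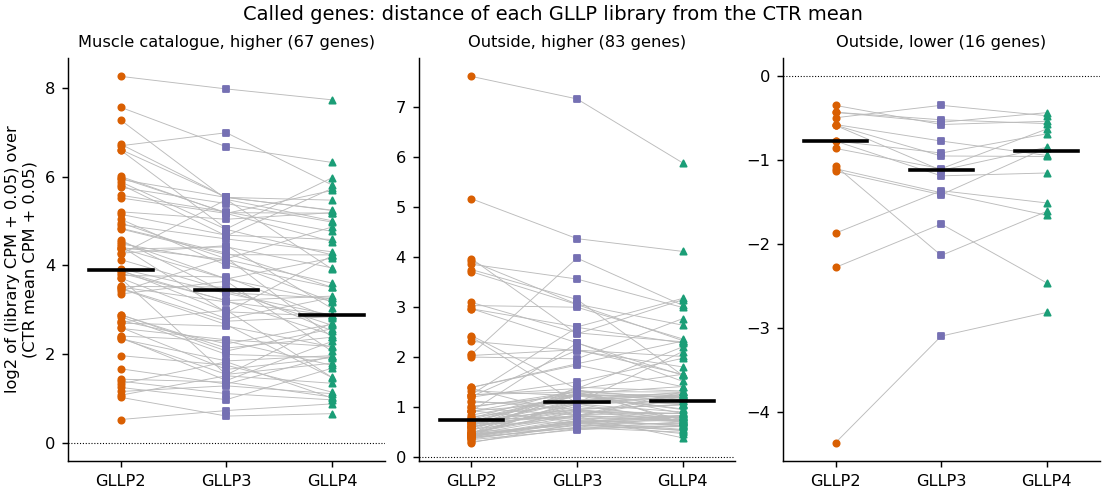
Log2 ratio of each GLLP library to the CTR mean (vertical axis, 0.05 CPM added to both) for the called genes, with 1 grey line per gene and black bars at the medians. The median of the muscle genes descends from GLLP2 to GLLP4, although not every gene does, and most genes outside the catalogue lie closest to 0 in GLLP2.

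Tgfbi and Mir675 were the only 2 genes outside both muscle sets, other than clone-named entries, that stayed called whichever of the 7 libraries was left out. Tgfbi, an adhesive protein of the extracellular matrix, was at 21.9, 17.8, 20.7 and 21.8 CPM in CTR1 to CTR4 and at 35.9, 42.9 and 47.6 CPM in GLLP2 to GLLP4. The groups were well apart, with means of 20.6 ± 1.9 (SD, n = 4) and 42.1 ± 5.91 (SD, n = 3) CPM, a log2 difference of 1.04 ± 0.12 (SE) and an edgeR adjusted p of 0.00547. Mir675 was at 5.77, 4.81, 5.02 and 5.97 CPM in CTR against 12.9, 32.7 and 26.3 CPM in GLLP (log2 difference 2.15 ± 0.28, edgeR adjusted p = 0.00885). GLLP2 was the lowest GLLP library for both. Of the pair, Tgfbi alone stayed called when the muscle catalogue was removed before the fit.

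The Mir675 entry is the hairpin that lies within the imprinted growth-restraining RNA H19, so reads on it in mRNA libraries come from the longer transcript and do not measure the mature microRNA. H19 under its own name was not analysed here. The mature arms are printed from RefSeq (GRCr8) to show what the entry could give rise to, 5′ to 3′, with the seed at bases 2 to 8 in capitals.
rno-miR-675-5p, chr1:207161800-207161821, minus strand: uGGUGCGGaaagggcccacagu
rno-miR-675-3p, chr1:207161766-207161786, minus strand: uGUAUGCCcuaaccgcucagu
The arms have different seeds.

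Imprinted growth genes, which are expressed from 1 parental copy and set fetal growth, gave 5 calls among 19 tested, all of them higher. Over all genes 1.01% were called higher. At an unadjusted p under 0.05, 7 of the list were higher and 1 lower. DESeq2 called 6 and 1, and voom 8 and 1. Over all genes 10.9%, 4.2% and 12.7% were higher by these criteria, and 8.39%, 1.8% and 10.4% lower. The list gave 0 edgeR calls without CTR3, 1 without CTR2, CTR4 or GLLP3, and 6 without GLLP2. Dlk1, a membrane protein that holds precursor cells undifferentiated, was at 3.49, 7.18, 6.16 and 5.82 CPM in CTR against 23.6, 89.8 and 46.7 CPM in GLLP. All GLLP libraries were above all CTR libraries with a wide spread among them, and the log2 difference was 3.24 ± 0.43 (edgeR adjusted p = 0.0147). Igf2, the fetal insulin-like growth factor, was at 19.97, 18.2, 20.7 and 27.3 CPM in CTR and 33.1, 54.4 and 47.9 CPM in GLLP (2.10-fold, edgeR adjusted p = 0.0361). Cdkn1c, an inhibitor of the cell cycle that restrains growth, was at 11.5, 9.45, 9.04 and 9.40 CPM in CTR and 15.6, 21.8 and 24.2 CPM in GLLP (2.08-fold, edgeR adjusted p = 0.0226). Grb10, which dampens insulin receptor signalling, rose 1.56-fold (edgeR adjusted p = 0.0458) but did not reach 1.5-fold in GLLP4. Peg3 was the other call, named here after its values were seen, at 13.1 to 18.5 CPM in CTR and 25.7, 38.5 and 24.003 CPM in GLLP. The list thus holds both growth promoters and growth restrainers, and its median log2 difference was 0.41.

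Insulin and insulin-like growth factor signalling gave 0 edgeR calls among 26 tested genes, with 13 positive and 13 negative differences and a median of 0.02. At an unadjusted p under 0.05, 4 were higher and 2 lower; DESeq2 called 2 and 1, and voom 4 and 4. Over all genes voom called 12.7% higher and 10.4% lower, so these few calls among 26 lie near the background. Pappa2, a protease that frees insulin-like growth factors, was at 2.34 to 5.11 CPM in CTR and 9.17, 5.25 and 8.01 CPM in GLLP (edgeR adjusted p = 0.0934). Rps6kb1, a kinase of that pathway, was at 93.2 to 115 CPM in CTR and 75.7, 74.8 and 62.8 CPM in GLLP (edgeR adjusted p = 0.0783).

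Matrix genes gave 3 calls among 35 tested, and 31 of the 35 differences were positive. Besides Tgfbi these were the elastic fibre genes Emilin1 and Mfap2. Emilin1 was at 43.4, 44.9, 42.7 and 43.7 CPM in CTR against 56.2, 67.9 and 66.7 CPM in GLLP (1.46-fold, edgeR adjusted p = 0.0292). Mfap2 was at 21.1, 23.3, 23.9 and 21.0 CPM in CTR against 30.0, 49.0 and 52.8 CPM in GLLP (1.97-fold, edgeR adjusted p = 0.0381). Neither reached 1.5-fold in every GLLP library. DESeq2 called 10 matrix genes higher and voom 21, beside 4.2% and 12.7% of all genes. The list's mean level relative to CTR was 0.22, 0.46 and 0.43 in GLLP2 to GLLP4, and it was 0.25 in CTR3, above GLLP2. Matrix proteases and their inhibitors gave 0 edgeR calls among 19 tested. At an unadjusted p under 0.05, 8 were higher and 1 lower, beside 10.9% and 8.39% of all genes. DESeq2 called 5 higher and 0 lower, beside 4.2% and 1.8%, and voom called 8 and 1, beside 12.7% and 10.4%. Mmp14, Mmp2 and Mmp7 had edgeR adjusted p of 0.0679, 0.0745 and 0.101.

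The serine and amino acid starvation list gave 1 call among 35. Psat1, an aminotransferase of serine synthesis, was at 12.1, 17.6, 18.4 and 26.5 CPM in CTR against 101, 48.0 and 58.9 CPM in GLLP (3.70-fold, edgeR adjusted p = 0.0298). The gene rose in all 3 GLLP libraries, and GLLP2 was the highest. The other serine enzymes did not pass: Phgdh lay at 86.1 to 111 CPM in CTR and 176, 120 and 119 CPM in GLLP (edgeR adjusted p = 0.151). Asns, the asparagine synthetase induced by amino acid shortage, was at 75.0 to 86.0 CPM in CTR and 169, 72.7 and 76.6 CPM in GLLP, so that GLLP2 alone was high.

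Further genes that held in all 3 libraries have various roles. Ndrg2, a gene associated with differentiation, was at 36.6 to 44.4 CPM in CTR and 61.1, 76.6 and 73.8 CPM in GLLP, and it was called in 6 of the 7 fits without 1 library. Cldn10, which forms ion-selective tight junctions, was at 3.12 to 5.83 CPM in CTR and 9.49, 18.1 and 16.6 CPM in GLLP (3.61-fold). Gdf10, a secreted member of the TGF-beta family, rose 1.93-fold from a CTR range of 15.8 to 18.98 CPM, with 26.7, 36.6 and 38.6 CPM in GLLP. Mdk, a heparin-binding growth factor of developing tissue, rose 2.13-fold, with 10.4, 14.8 and 14.0 CPM in GLLP. Gpnmb, a membrane glycoprotein of macrophages and other cells, rose 2.04-fold, with 9.65, 13.5 and 14.8 CPM in GLLP. For Gdf10 and Gpnmb GLLP4 was the highest library and GLLP2 the lowest of the GLLP group.

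Smaller groups of named genes complete the higher side. Rtn2 rose 2.44-fold, with 6.40, 5.94 and 6.14 CPM in GLLP. Fam3d rose 3.07-fold, with 4.05, 5.01 and 6.97 CPM in GLLP, and Slc16a11 rose 1.94-fold, with 23.8, 25.1 and 34.2 CPM. Itm2a rose 1.84-fold, with 35.2, 44.8 and 48.1 CPM in GLLP. GLLP4 was the highest library for Fam3d, Slc16a11 and Itm2a, and GLLP2 was the highest for Rtn2. Cpxm1, Exoc3l2 and Homer2, a scaffold protein counted among androgen-responsive genes, each rose 1.98-fold and were highest in GLLP3. Hsd11b2, which inactivates glucocorticoids, rose 2.32-fold, from a CTR range of 1.07 to 1.44 CPM to 3.22, 2.19 and 3.05 CPM (edgeR adjusted p = 0.0437).

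**Figure D4:**
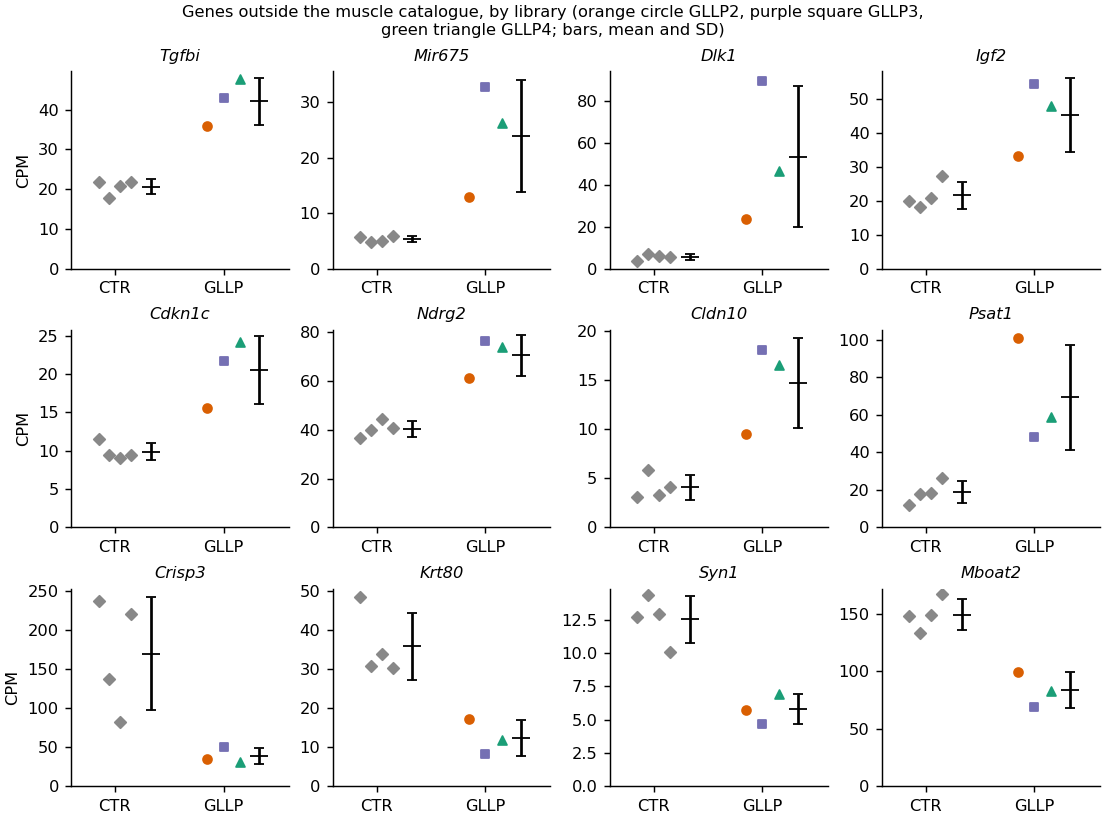
CPM of 12 genes outside the muscle catalogue in each library (vertical axes from 0), with grey diamonds for CTR, coloured symbols for GLLP, and bars for mean and SD. The groups do not overlap in any panel, and Psat1 is highest in GLLP2 while Tgfbi and Cdkn1c are highest in GLLP4.

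Genes that fell were fewer, and none of the 16 stayed called under each removal of a single library. Mboat2, a lysophospholipid acyltransferase listed among androgen-responsive genes, was at 148, 133, 149 and 167 CPM in CTR against 99.6, 68.7 and 83.2 CPM in GLLP (log2 difference -0.83 ± 0.13, edgeR adjusted p = 0.0242). Crisp3, a cysteine-rich secretory protein, was at 237, 137, 82.5 and 221 CPM in CTR against 34.9, 49.98 and 30.7 CPM in GLLP (log2 difference -2.14 ± 0.37, edgeR adjusted p = 0.0429). Krt80, a keratin, was at 48.5, 30.7, 33.8 and 30.3 CPM in CTR and 17.0, 8.11 and 11.7 CPM in GLLP (edgeR adjusted p = 0.0336). In each the GLLP libraries lay below all CTR libraries, although Crisp3 also varied widely within CTR. Syn1, a synaptic vesicle protein, was at 10.1 to 14.4 CPM in CTR and 5.69, 4.69 and 6.94 CPM in GLLP. Osgin1, a gene induced by oxidative stress, was at 23.1 to 31.9 CPM in CTR and 15.5, 14.0 and 16.5 CPM in GLLP. Gpr146 and Slc6a6, the taurine transporter, had log2 differences of -0.85 and -1.03. Ggt6, of the gamma-glutamyl transferase family, was at 1.92 to 7.83 CPM in CTR against 0.193, 0.536 and 0.663 CPM in GLLP.

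Lipid genes leaned to lower values. The cholesterol and fatty acid list gave 1 call among 33, and 28 of its 33 differences were negative, with a median of -0.29. Idi1, an enzyme of isoprenoid synthesis, was at 152, 167, 150 and 174 CPM in CTR and 120, 112 and 109 CPM in GLLP (log2 difference -0.50 ± 0.09, edgeR adjusted p = 0.0336). The groups were apart, but the change was under 1.5-fold. DESeq2 called 6 of the list lower and voom 12, beside 1.8% and 10.4% of all genes. The list's mean level relative to CTR was -0.29, -0.38 and -0.20 in GLLP2 to GLLP4, and it was -0.34 in CTR3, inside the GLLP range.

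Protein production showed opposite leanings. Ribosomal protein genes gave 2 calls among 59, Rps3a and Rpl12, and all 59 differences were positive with a median of 0.48. DESeq2 called 45 of them higher and voom 55, beside 4.2% and 12.7% of all genes. The groups did not overlap for 51 of the 59, against 9.49% of all genes. Rps3a was at 362, 391, 372 and 371 CPM in CTR and 476, 546 and 580 CPM in GLLP (1.43-fold, edgeR adjusted p = 0.0437). The list's mean level was 0.22, 0.49 and 0.69 above CTR in GLLP2, GLLP3 and GLLP4, so it was highest in the library in which short genes were high. Ribosomal protein genes have many processed copies, among which reads can be divided. Genes of endoplasmic reticulum folding and secretion gave 0 edgeR calls among 42, with 41 negative differences and a median of -0.34. Of these, 27 were lower at an unadjusted p under 0.05, and DESeq2 called 10 lower and voom 35, beside 8.39%, 1.8% and 10.4% of all genes by the same criteria. The list's mean level was -0.17, -0.49 and -0.37 in GLLP2 to GLLP4 and -0.15 in CTR3. Dnajb9, a chaperone of that compartment, was at 109 to 159 CPM in CTR and 100, 53.9 and 47.8 CPM in GLLP (edgeR adjusted p = 0.105), and Derl2 and Syvn1 had edgeR adjusted p of 0.101 and 0.105.

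Prostate function genes were mostly not called by edgeR. The secretory list gave 0 higher edgeR calls and 1 lower call, Crisp3, among 18. At an unadjusted p under 0.05, 1 was higher and 4 lower, DESeq2 called 0 and 3, and voom 1 and 4. Scgb1d2 was at 33681, 31934, 32332 and 26271 CPM in CTR and 21730, 15311 and 21482 CPM in GLLP, below every CTR library but not called (edgeR adjusted p = 0.092). Of 29 androgen-responsive genes, edgeR called 1 higher and 2 lower, with a median of -0.04. At an unadjusted p under 0.05, 3 were higher and 3 lower, DESeq2 called 1 and 2, and voom 5 and 4. Over all genes 10.9%, 4.2% and 12.7% were higher by these criteria, and 8.39%, 1.8% and 10.4% lower.

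Lists of other cell types gave few edgeR calls. Luminal epithelium, basal epithelium, endothelium, myeloid cells, and T and B cells gave 0 edgeR calls among 17, 13, 14, 20 and 11 tested genes. At an unadjusted p under 0.05 they had 2, 8, 3, 5 and 2 genes higher, and luminal epithelium had 2 lower. DESeq2 called 0, 7, 1, 2 and 0 higher, and voom 1, 8, 5, 6 and 1 higher with 3 luminal genes and 1 lymphocyte gene lower. Over all genes 10.9%, 4.2% and 12.7% were higher by these criteria, and 8.39%, 1.8% and 10.4% lower. The basal list, with 8, 7 and 8 of 13 genes higher, lay far above those shares. Its mean level relative to CTR was 0.20, 0.74 and 0.74 in GLLP2 to GLLP4, and it was 0.27 in CTR3, above GLLP2. Adipocytes and red blood cells had 0 genes past the threshold by edgeR, by unadjusted p, by DESeq2 and by voom. The basal list had a median log2 difference of 0.74, and Krt5, a basal keratin, was at 31.9 to 48.8 CPM in CTR and 47.4, 84.2 and 97.5 CPM in GLLP (edgeR adjusted p = 0.116). GLLP2 lay inside the CTR range for Krt5, and the other GLLP libraries above it.

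Growth and development lists likewise gave few edgeR calls. The cell cycle list gave 0 edgeR calls among 44, with 1 lower at an unadjusted p under 0.05, 0 by DESeq2 or voom, and a median of -0.01. Mki67, a marker of dividing cells, was at 35.6 to 82.7 CPM in CTR and 40.2, 47.8 and 58.7 CPM in GLLP, wholly inside the CTR range. Prostate bud and branch genes gave 0 edgeR calls among 24. At an unadjusted p under 0.05, 8 were higher, with 4 by DESeq2 and 11 by voom. These counts lay above the shares of 10.9%, 4.2% and 12.7% over all genes. Wnt4, a signal of epithelial branching, was at 7.76 to 9.98 CPM in CTR and 12.2, 17.7 and 22.5 CPM in GLLP (edgeR adjusted p = 0.0657). Interferon and antigen presentation genes gave 0 edgeR calls among 20. At an unadjusted p under 0.05, 7 were higher and 2 lower, with 4 and 1 by DESeq2 and 6 and 1 by voom. The shares over all genes were 10.9%, 4.2% and 12.7% higher, and 8.39%, 1.8% and 10.4% lower. Immediate-early factors gave 0 edgeR calls among 23, with 1 higher at an unadjusted p under 0.05, 0 by DESeq2 and 2 by voom. Among 36 nuclear genes of oxidative phosphorylation and carriers the 1 call was Slc25a4, the ADP/ATP carrier of heart and muscle, at 82.3 to 92.9 CPM in CTR and 115, 142 and 147 CPM in GLLP.

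Outside the catalogue the number of calls rested on single libraries and on the muscle genes themselves. Without GLLP2, 719 genes outside the catalogue rose and 713 fell. In that fit the genes called higher anywhere had a median span of 13.6 kb and those called lower 52.3 kb, against 24.8 kb for all genes tested. Without GLLP3, or without CTR1 or CTR2, 13 rose; without CTR3 and CTR4 it was 19 and 18. When the muscle catalogue was removed before the fit, 6 genes outside it stayed called higher and 0 lower: Tgfbi, Atp1b4, Klhl31 and 3 clone-named entries. In all of these fits with the catalogue kept, between 47 and 76 muscle genes were called higher.

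**Figure D5:**
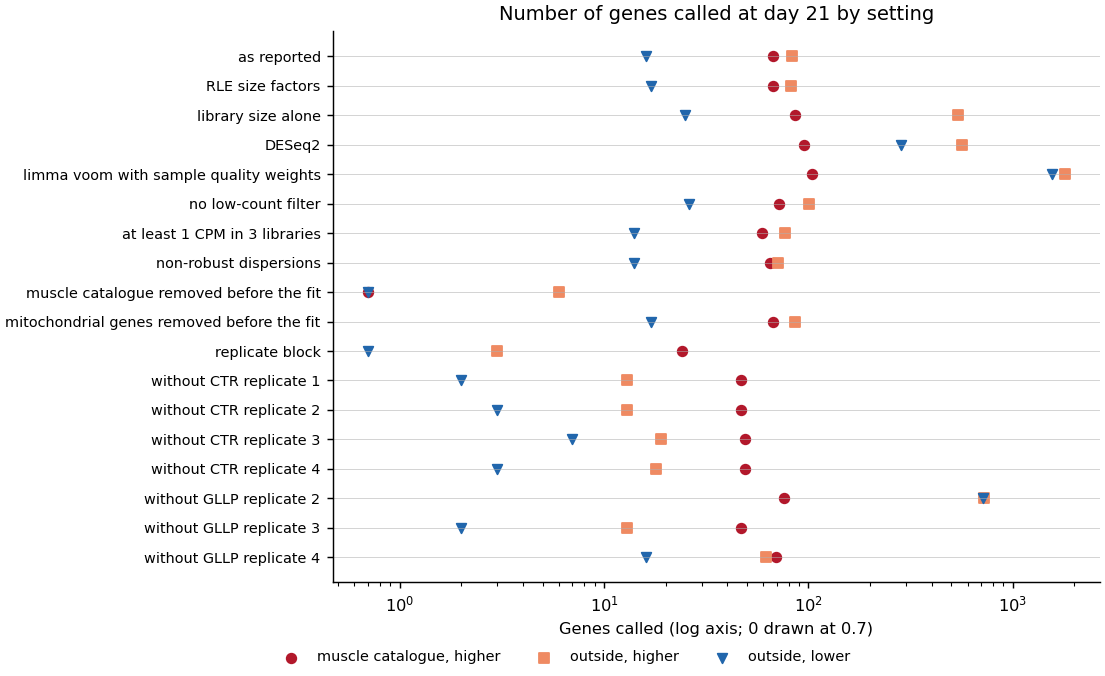
Number of genes called (horizontal log axis) under each setting (vertical axis), with red circles for muscle catalogue genes that were higher, orange squares for other genes that were higher and blue triangles for other genes that were lower. Muscle calls stay between 24 and 104 wherever the catalogue is in the fit, while calls outside it run from 3 to 1795 on the higher side.

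Genes with a small p when 1 library was left out show what that library held. Without GLLP2, Acy1 was among the 5 genes with the smallest p outside muscle. It was also called higher with all 7 libraries (edgeR adjusted p = 0.0366). Acy1, an aminoacylase, was at 30.9 to 36.4 CPM in CTR and 47.5, 90.3 and 85.6 CPM in GLLP, so GLLP2 was the GLLP library closest to CTR. Without GLLP3, Tex11 came first: it was at 20.7 to 30.3 CPM in CTR against 0, 10.6 and 0 CPM in GLLP. Without CTR3, Cwh43 came first, at 132, 131, 15.8 and 110 CPM in CTR and 22.1, 15.7 and 20.7 CPM in GLLP, so that CTR3 lay among the GLLP libraries. Without CTR4, S100a6 appeared, at 508, 507, 567 and 197 CPM in CTR and 229, 225 and 299 CPM in GLLP. Without CTR1, Gadd45g appeared, at 267, 432, 439 and 492 CPM in CTR and 246, 212 and 248 CPM in GLLP. These genes each have 1 library on the other group's side or near it.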

How the data were processed

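Total RNA from rat ventral prostate was sequenced in 7 libraries at day 21, per the labels' protocols. Whole-number read counts, not normalized, were deposited by the authors for 28688 entries at day 21. Per the submitters' processing notes, STAR, edgeR 3.34.0 and Rnor_6.0 were used, with no role stated. Which counter was run, and whether by strand, is not given in the sources used here, so antisense or overlapping genes cannot be separated. Totals were 30529776 to 39161666 counts. Replicates differed beyond sampling noise. The 25 date-like names and 4 entries sharing a name were kept in the fit and not named.

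A single edgeR 4.0.16 fit (R 4.3.3) took the 7 libraries (filterByExpr, TMM, robust quasi-likelihood tests, Benjamini-Hochberg adjustment over 14915 genes, threshold 0.05). DESeq2 1.42.0, limma 3.58.1 voom with quality weights, other scalings and filters, a replicate block and leaving out each library were alternatives. Standard errors are the log2 difference divided by the root of F. The fit was tested on simulated counts. It recovered 20.9% of simulated 1.5-fold changes, 64.2% of 2-fold and 93.9% of 4-fold changes, and it called 7 unchanged genes. A list with 0 edgeR calls may therefore still hold changes, also some of 2-fold or more.

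The 36 gene lists and their members were chosen with earlier results of these data known. Named genes are the 4 smallest p of each muscle list; among called genes outside it that held, with at least 5 CPM in the higher group, the 15 with the largest fold, the 10 with the smallest p and up to 15 lower; list members called, or up to 3 as values; and 5 genes per left-out library that moved the calls. Some further genes are named as markers or examples chosen after their values were seen. A few genes that these rules name are not reported here. Figures used matplotlib 3.10.9.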

Additional observations from a re-analysis of the deposited data

Results flagged for a closer look

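Of 134 CTR groups of 4 checked, 14 had 1 library far from the other 3. For unselected values chance gives about 1 in 20. Some genes checked were named because leaving out 1 CTR library gave them a small p, and others had few counts. The 14 can therefore not be set against that rate. In muscle, the few counts of Cox8b (0.0289 CPM in CTR1) and Myh8 (0.113 CPM in CTR2) stood beside 0 elsewhere, and Cdh15, a cadherin of muscle precursors, was at 0.331 CPM in CTR3. CTR1 was high for Cdkn1c (11.5 CPM against 9.04 to 9.45) and Gpr146 (87.1 CPM against 62.3 to 66.3). CTR3 was high for Zbed3 (17.2 CPM), Mmp7 (7.51 CPM), Tgfb1 (14.8 CPM) and Cd8a (1.08 CPM). CTR4 was high for Rps6kb1 (115 CPM), the adipocyte genes Adipoq (14.2 CPM against 2.51 to 4.10) and Retn (6.96 CPM against 1.30 to 1.47), and the seminal vesicle gene Semg1 (176 CPM against 3.23 to 7.12), and low for S100a6 (197 CPM against 507 to 567).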

How the results depend on the processing

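Over all genes, 150 rose and 16 fell; outside the muscle catalogue 83 rose and 16 fell, of which 54 and 10 held. With library size alone these became 625 and 25, 539 and 25, and 170 higher that held; the median of all genes then shifted by 0.14. DESeq2 gave 659 and 283, 564 and 283, 141 and 47. Limma voom gave 1899 and 1556, 1795 and 1554, 186 and 58. Lower calls made up 9.64% of the edgeR calls, 30.0% with DESeq2 and 45.0% with voom. No low-count filter gave 26 lower calls. Without the muscle catalogue, 6 rose and 0 fell, and 6 and 0 held. The wider muscle catalogue, chosen after seeing the data, left 72 higher calls of which 45 held.

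Leaving out 1 library gave 60 to 795 higher and 2 to 714 lower calls, 13 to 719 and 2 to 713 outside the catalogue, and 12 to 385 and 2 to 239 that held; the highest of each came without GLLP2. Without GLLP4, 114 of the 166 calls were kept. No named gene changed sign in a pair of fits that called it in either. Some list medians near 0 did: that of the cell cycle list, -0.01, was 0.20 without GLLP2, 0.12 without CTR2, 0.08 without CTR4, 0.14 with library size alone and 0.0030 with a filter at 1 CPM, and that of androgen-responsive genes, -0.04, was 0.10 with library size alone and 0.0070 without CTR4. RLE size factors, a filter at 1 CPM, non-robust dispersions and removal of mitochondrial genes kept each of these counts within 1.5 times.

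The replicate block gave 27 higher and 0 lower calls, 3 and 0 outside the catalogue, and 3 and 0 that held. Same-numbered libraries had correlations of -0.14, 0.15 and -0.12 between their deviations, so the numbers were not taken as pairs. The 3 GLLP libraries limit the precision, and so does depth for genes such as Myog, with 53 counts in all of GLLP.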
